A study of Mus musculus with 8 samples.

Results

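The 10 genes described here encode the core of the switch that commits a cell to S phase: the D-type cyclins Ccnd1, Ccnd2 and Ccnd3, the E-type cyclins Ccne1 and Ccne2, the kinases Cdk4 and Cdk6, the inhibitors Cdkn1b and Cdkn2a, and the retinoblastoma gene Rb1. Their probe sets were taken by symbol, as those of an Affymetrix mouse expression array whose only gene symbol in the probe annotation is 1 of the 10. This gave 27 of the 45101 probe sets. Of these, 21 rose above an expression minimum of 50 on the linear scale (5.64 on the log2 scale) in at least 1 array, with at least 1 such probe set for each of the 10 genes. A gene's level is the mean log2 value of its passing probe sets, and 11940 genes in all were tested.

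The arrays were made from V6.5 mouse embryonic stem cells (ESCs), a line derived from mouse blastocysts. All cells carried a lentivirus with a constantly expressed shRNA against mouse Wdr5, and with a human WDR5 cDNA behind a promoter that is active only when doxycycline is given. WDR5 is an adaptor of the MLL complexes, which methylate histone H3 at lysine 4. The cDNA was either wild type (WT) or F266A, a variant that the study made to remove RNA binding by WDR5. Infected cells were sorted for green fluorescence, and each line was grown with doxycycline at 2 µg per mL (+dox) or without it (-dox). The 4 groups are thus WT +dox and WT -dox, and F266A +dox and F266A -dox, with 2 arrays each, called biological duplicates by the submitters. No group lacked the shRNA, and 1 line stands for each cDNA, so a difference between the lines cannot be told apart from any other difference between these infections. In whole-culture RNA, more cells of a kind and more RNA per cell cannot be told apart either.

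In most cells, D-type cyclins respond to growth signals and activate CDK4 and CDK6, and E-type cyclins activate CDK2. Both kinds of complex phosphorylate the RB1 protein, which then releases E2F transcription factors that drive S-phase genes, while p27 (the product of Cdkn1b) and INK4A (a product of Cdkn2a) hold the kinases back. Mouse ESCs are known for a short G1 phase with high cyclin E activity and low D-type cyclins, and D-type cyclins generally become more abundant as such cells leave the naive state.

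Duplicate arrays correlated at 0.997 to 0.998 over all probe sets, against 0.985 to 0.996 for arrays of different groups, and the median standard error (SE) of a difference was 0.08 on the log2 scale. With doxycycline, Wdr5 itself (mouse probe sets) read 8.35 and 8.32 in the WT arrays and 8.59 and 8.56 in the F266A arrays, and without it 9.45 and 9.35 (WT) and 9.31 and 9.27 (F266A). The endogenous mRNA was thus higher without doxycycline in both lines, by 1.06 ± 0.07 (SE) and 0.71 ± 0.07. The human cDNA has no probe set of its own here, so these levels do not check which cultures expressed it. All 9 ESC markers (Pou5f1, Nanog, Sox2 and others) were above the minimum in every group, and 7 of 8 fibroblast markers were below it in every group. Markers of the primed epiblast, the state that follows naive pluripotency, moved with the groups: the log2 levels of the 5 genes summed to 33.9 to 34.1 (WT +dox), 38.5 to 39.1 (F266A +dox), 40.5 to 40.9 (WT -dox) and 43.3 to 44.0 (F266A -dox). Otx2 did not follow this order and was called lower in F266A -dox than in WT -dox (-0.36 ± 0.08). In all marker sums given here, a gene's value is the mean of all its probe sets, whether or not they passed the minimum. Of the primed epiblast markers, Fgf5 and Zic2 had no value above the minimum in WT +dox, nor had Fgf5 in F266A +dox. The summed log2 level of the ESC markers ran from 97.2 in WT +dox down to 92.6 to 92.9 in F266A -dox. The mean of the 18S rRNA control probe sets also moved, from 11.3 to 11.6 (WT +dox) over 11.0 to 11.4 (WT -dox) and 10.7 to 10.9 (F266A +dox) down to 9.93 to 9.95 (F266A -dox). Neural markers summed to between 28.3 and 29.6, primitive endoderm markers to between 22.8 and 23.9 and trophectoderm markers to between 31.2 and 32.2, over lists of 5 genes each, with Neurog2, Gata4, Sox17, Sox7 and Elf5 below the minimum in every group. Of the 4 tested neural markers, 3 were called higher without doxycycline in each line (and 1, Sox1, lower in the WT line). Nes was higher in all 4 comparisons, by 0.32 to 0.78, while the Sox1 differences were negative in all 4. Sox1 was called lower without doxycycline in the WT line (-0.36 ± 0.12), and lower in F266A than in WT when doxycycline was given (-0.36 ± 0.12). Within the F266A line (-0.28 ± 0.12) and between the lines without doxycycline (-0.28) it was not called, and its F266A -dox mean was under the minimum (5.43). Dab2, an endoderm marker, was 1.01 higher in F266A than in WT both with and without doxycycline. The trophectoderm markers Cdx2 (by 0.68 and 0.69) and Eomes (by 0.48 and 0.39) were higher in F266A -dox than in F266A +dox and in WT -dox. Tfap2c, of the same list, was called lower in both comparisons (-0.25 and -0.49). The Cdx2 means of F266A +dox and WT -dox were under the minimum (5.49 each). The part of these markers and of the 18S signal in the differences given here was not tested.

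Without doxycycline, the WT line had more cyclin D1, D2, E1 and E2 mRNA and more Cdk6 mRNA, and less Cdkn1b mRNA. Of the 10 genes, 5 were higher and 1 was lower at an adjusted p under 0.05 (limma, Benjamini-Hochberg over all genes tested), where 16.1% of all genes were higher and 15.4% were lower. The median difference of the 10 was 0.38, against 0.0037 over all genes. The F266A line with doxycycline differed from the WT line with doxycycline in the same 6 genes, and Cdkn2a was higher as well: 6 were higher and 1 was lower, with backgrounds of 15.9% and 12.5% and medians of 0.43 for the 10 genes and 0.0029 over all genes. Both comparisons use the WT +dox arrays, so their likeness is not independent. Within the F266A line, the cells without doxycycline had 4 of the 10 genes higher (background 8.94%) and 2 lower (10.6%), with a median of 0.14, against -5.48e-05 over all genes. Between the lines without doxycycline, 2 were higher in F266A (14.0%) and 1 was lower (13.4%), with a median of 0.09, against -0.0089 over all genes.

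**Figure D1:**
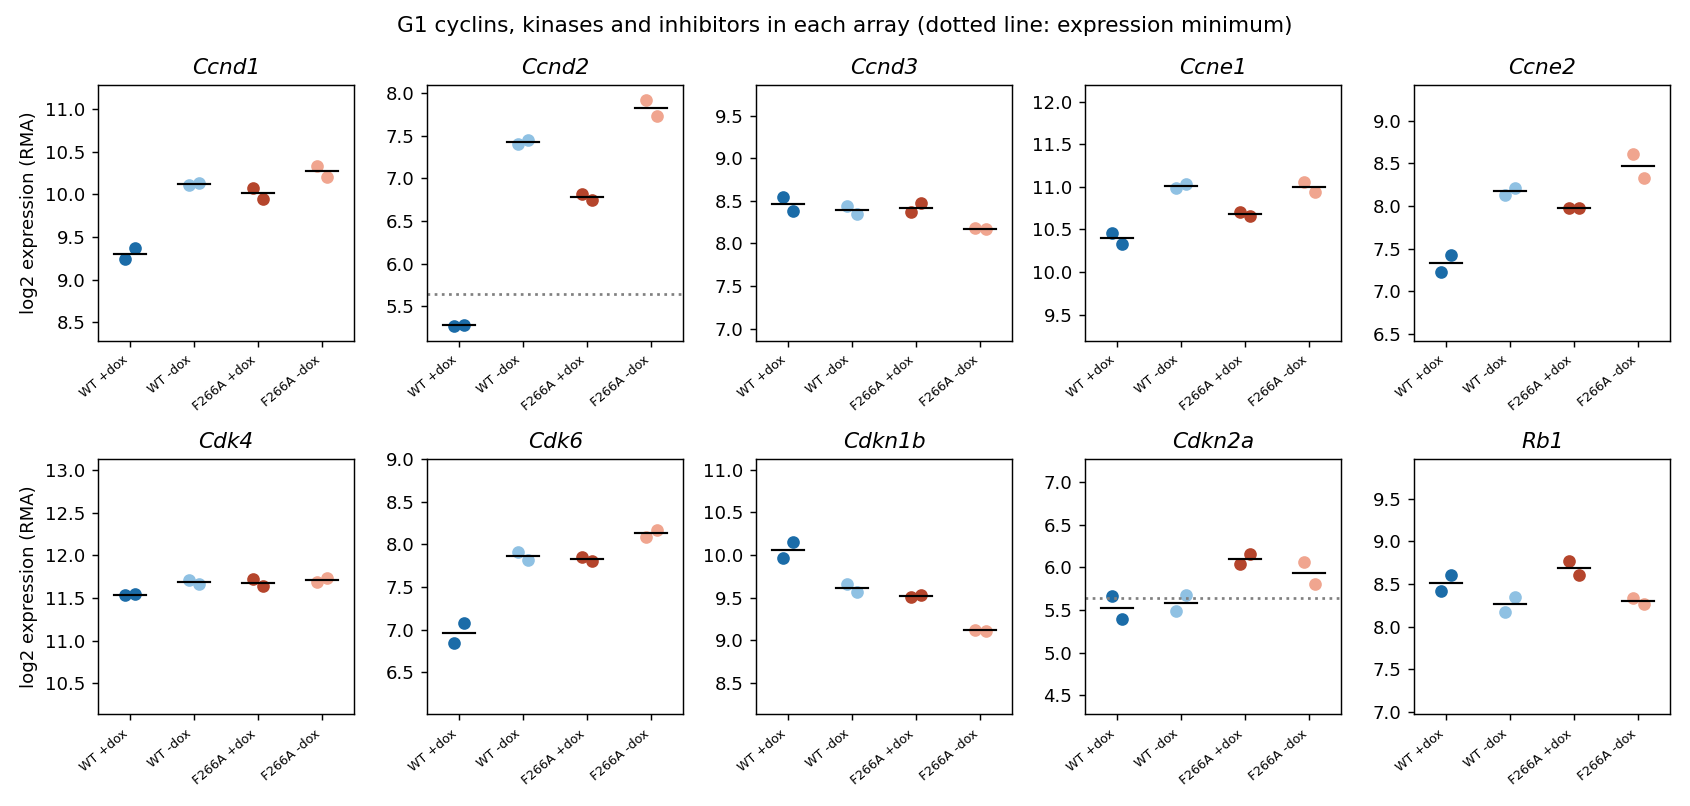
Log2 expression (RMA, vertical axis) of each gene in the 4 groups (horizontal axis). Each dot is an array, each bar is a group mean, every panel spans 3 log2 units and the dotted line is the expression minimum of 5.64; Ccnd2 spans the widest range, from 5.28 in WT +dox to 7.83 in F266A -dox, while Cdk4 stays between 11.53 and 11.74.

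Among the D-type cyclins, Ccnd2 moved most. Its level was 5.27 and 5.28 with doxycycline and 7.40 and 7.45 without it in the WT line, against 6.81 and 6.74 with and 7.92 and 7.73 without in the F266A line. No 2 groups overlapped, and the WT +dox arrays were both below the minimum. Ccnd2 was 2.14 ± 0.08 higher in WT -dox than in WT +dox (4.42-fold, adjusted p = 1.11e-06), the 4th largest rise among the 11940 genes. In F266A +dox it was 1.50 ± 0.08 above WT +dox (2.83-fold, adjusted p = 5.05e-06). Because the WT +dox level was under the minimum, these folds depend on how weak signals are read: set against the minimum itself, WT -dox was 1.78 higher and F266A +dox 1.13 higher.

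Ccnd2 also differed in the other comparisons, where all groups were above the minimum. Within the F266A line it was 1.05 ± 0.08 higher without doxycycline (2.07-fold, adjusted p = 0.000207). In F266A -dox it exceeded WT -dox by 0.41 ± 0.08 (adjusted p = 0.00443). These calls held with each of the 8 arrays left out in turn, in these and in the earlier 2 comparisons.

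Ccnd2 has 7 probe sets, of which 5 passed. Their differences were 1.97 (1434745_at) to 2.39 (1416122_at) for WT -dox over WT +dox and 1.25 to 1.85 for F266A +dox over WT +dox. In WT +dox, 3 of the 5 were under the minimum in both arrays (1416122_at, 1430127_a_at and 1448229_s_at) and passed through the other groups, so these sizes are not exact and their likeness adds no support. Within the F266A line all 5 rose without doxycycline, by 0.98 to 1.13. Between the lines without doxycycline, 4 of the 5 were called, by 0.36 to 0.52, and 1455956_x_at was 0.29 ± 0.12 higher with an adjusted p of 0.136. The probe sets 1416123_at and 1416124_at stayed between 3.29 and 5.22 in all arrays.

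Ccnd1 is the D-type cyclin best known as a growth factor sensor. Its WT arrays gave 9.24 and 9.37 (+dox) and 10.11 and 10.14 (-dox), and the F266A arrays 10.08 and 9.95 (+dox) and 10.33 and 10.21 (-dox). The WT +dox arrays stood apart below the other 6. Ccnd1 was higher by 0.83 ± 0.08 in WT -dox (1.77-fold, adjusted p = 0.00011) and by 0.71 ± 0.08 in F266A +dox (1.64-fold, adjusted p = 0.000217), each over WT +dox. Within the F266A line the difference was 0.25 ± 0.08 and just missed the threshold (adjusted p = 0.0528), and its probe sets disagreed: 1448698_at rose by 0.39 and 1417420_at by 0.32, while 1417419_at was 0.05 ± 0.09 higher with an adjusted p of 0.762. The difference was called with a minimum of 100 (adjusted p = 0.0357), quantile normalization (0.0424), the trended robust prior (0.0106) and the brightest probe set (0.0243).

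Ccnd3 is the remaining D-type cyclin. With doxycycline it read 8.55 and 8.38 in the WT arrays and 8.37 and 8.47 in the F266A arrays, and without it 8.44 and 8.34 (WT) and 8.18 and 8.17 (F266A). F266A -dox was below every other array, but no comparison of the gene's mean passed the test (adjusted p of 0.0638 within the F266A line and 0.0833 between the lines without doxycycline). The mean joins a bright and a dim probe set. In the F266A line the bright 1415907_at read 10.57 and 10.58 with doxycycline against 10.15 and 10.15 without. It fell by 0.43 ± 0.08 within the F266A line (adjusted p = 0.00819) and was lower by 0.32 ± 0.08 in F266A -dox than in WT -dox (adjusted p = 0.0166), with the p-values adjusted over all passing probe sets. The dim 1444323_at stayed between 6.17 and 6.41. Ccnd2 was called higher in all 4 comparisons, so its rise where this cyclin D3 probe set was lower does not tie it to Ccnd3.

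**Figure D2:**
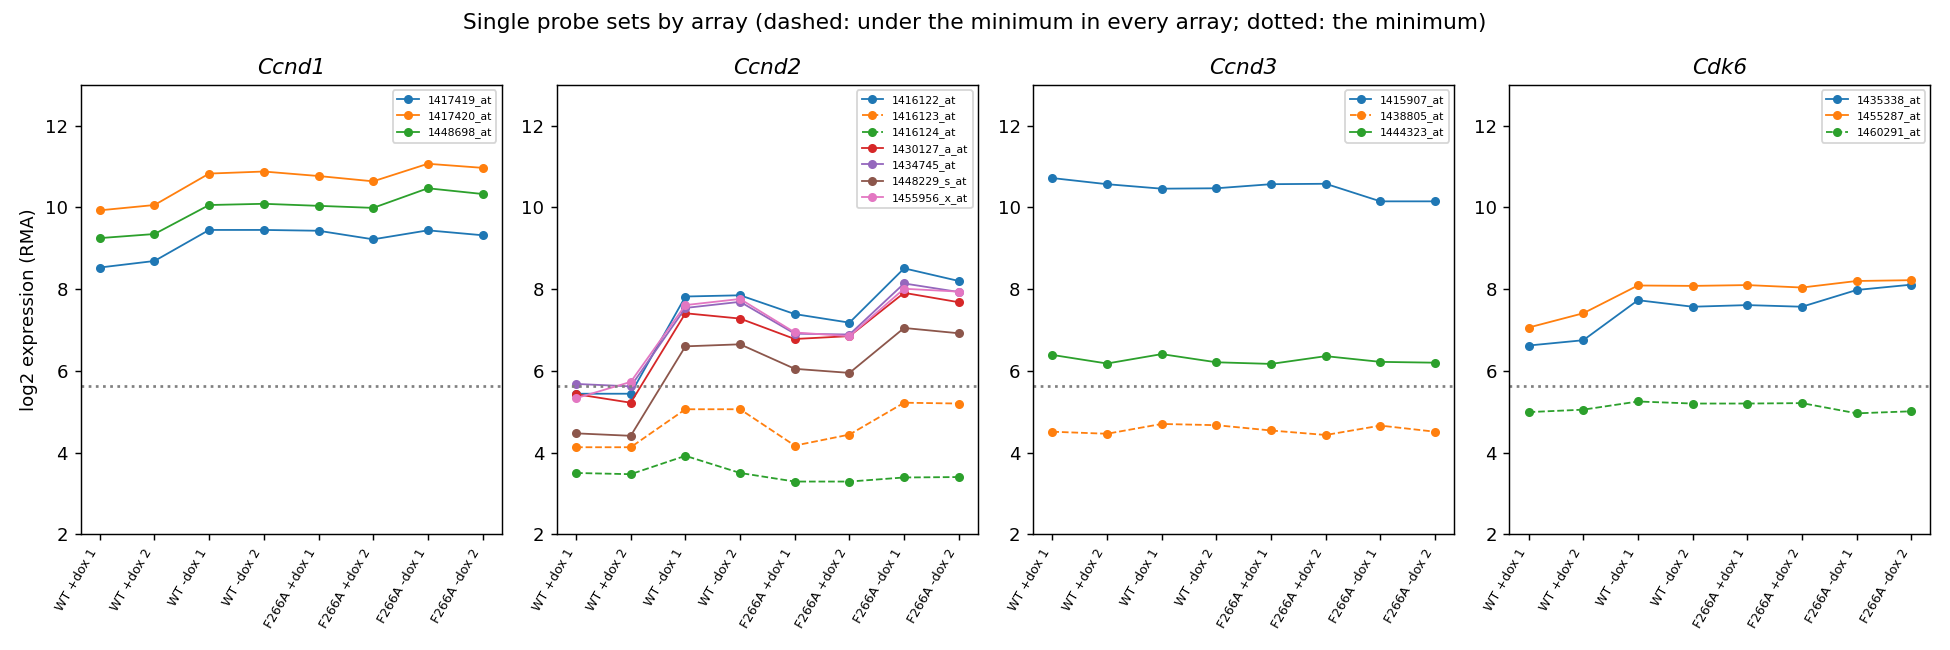
Log2 expression (RMA, vertical axis) of every probe set of Ccnd1, Ccnd2, Ccnd3 and Cdk6 in the 8 arrays (horizontal axis); lines only join the points of a probe set, dashed lines never exceed the minimum, and the dotted line is the minimum of 5.64. The 5 passing Ccnd2 probe sets keep the same shape, whereas of the passing Ccnd3 probe sets only the bright one drops in F266A -dox, from 10.57 and 10.58 in F266A +dox to 10.15 and 10.15.

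Both E-type cyclins, the partners of CDK2, rose without doxycycline in both lines, with smaller differences than Ccnd2. Ccne1 read 10.46 and 10.33 with doxycycline and 10.99 and 11.03 without it in the WT line, against 10.70 and 10.66 with and 11.06 and 10.94 without in the F266A line. The -dox arrays of the WT and F266A lines overlapped each other and stood above all +dox arrays. Ccne1 rose by 0.61 ± 0.07 in the WT line (1.53-fold, adjusted p = 0.000371) and by 0.32 ± 0.07 in the F266A line (1.25-fold, adjusted p = 0.0162). In F266A +dox it was 0.28 ± 0.07 above WT +dox (adjusted p = 0.0189), a call that was lost without 3 of the 8 arrays, WT +dox replicate 2 (adjusted p = 0.114) and F266A +dox replicates 1 and 2 (adjusted p = 0.104 and 0.0577). The rise within the F266A line was called without 5 of the 8 arrays. The difference was carried more by 1416492_at (0.72 in the WT line, 0.43 in the F266A line) than by 1441910_x_at (0.50 and 0.21, the latter with an adjusted p of 0.161). With the brightest probe set alone, the calls within the F266A line (adjusted p = 0.13) and between the lines with doxycycline (adjusted p = 0.0842) were lost.

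Ccne2 has a single probe set, and its groups did not overlap. Its WT arrays gave 7.23 and 7.43 (+dox) and 8.13 and 8.21 (-dox), and the F266A arrays 7.98 and 7.98 (+dox) and 8.61 and 8.33 (-dox). Ccne2 rose by 0.84 ± 0.10 in the WT line (1.79-fold, adjusted p = 0.000357) and by 0.49 ± 0.10 in the F266A line (1.41-fold, adjusted p = 0.01), the latter call holding without 6 of the 8 arrays. In F266A +dox it was 0.65 ± 0.10 higher than in WT +dox (1.57-fold, adjusted p = 0.00143). Between the lines without doxycycline it was 0.30 ± 0.10 higher in F266A, with an adjusted p of 0.0545.

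The 2 kinases that pair with D-type cyclins differed from each other. With doxycycline, Cdk6 read 6.84 and 7.08 in the WT arrays and 7.85 and 7.81 in the F266A arrays, and without it 7.91 and 7.82 (WT) and 8.09 and 8.17 (F266A). The WT +dox arrays stood apart below the rest, and WT -dox and F266A +dox overlapped. Cdk6 rose by 0.91 ± 0.09 in the WT line (1.87-fold, adjusted p = 0.000112) and was 0.87 ± 0.09 higher in F266A +dox than in WT +dox (1.83-fold, adjusted p = 0.000122). Within the F266A line it rose by 0.30 ± 0.09 (adjusted p = 0.0403), a call that held without only 2 of the 8 arrays, the WT +dox ones. The call was also lost with array weights (adjusted p = 0.0517), median centring (0.0521), the replicate block (0.0525), the brightest probe set (0.373) and no expression minimum (0.389). There 1435338_at was called (0.46 ± 0.09) and 1455287_at was not (0.14 ± 0.11).

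Cdk4, the sister kinase, was 11.53 and 11.55 with doxycycline and 11.71 and 11.66 without it in the WT line, against 11.72 and 11.64 with and 11.69 and 11.74 without in the F266A line. The WT +dox arrays were the lowest, and the other 3 groups overlapped. Its differences were 0.15 ± 0.07 in the WT line (adjusted p = 0.129), 0.14 ± 0.07 between the lines with doxycycline (adjusted p = 0.145), and 0.03 ± 0.07 both within the F266A line and between the lines without doxycycline. None passed the test. With the trended robust variance prior, those in the WT line (adjusted p = 0.0214) and between the lines with doxycycline (adjusted p = 0.027) were called.

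The stretches before the start sites of these kinases are shown because the gene whose levels ran closest to Ccnd2 was Myc (described further on), and MYC proteins bind the E-box word CACGTG with their partner MAX. The sequences cover the 250 bases upstream of the start, 5′ to 3′ on the gene's strand, from RefSeq on GRCm38.p6, with each CACGTG in capitals. The word is its own reverse complement, so 1 search covers both strands. The Cdk4 window is chr10:127063285-127063534 on the plus strand, the Cdk6 window is chr5:3343643-3343892 on the plus strand, and the Cdkn1b window, given for a gene that moved the other way, is chr6:134920151-134920400 on the plus strand. The Cdk6 gene begins at 3341004, so its window lies inside the gene, before a later start. The stretch before 3341004 was not searched.
Cdk4: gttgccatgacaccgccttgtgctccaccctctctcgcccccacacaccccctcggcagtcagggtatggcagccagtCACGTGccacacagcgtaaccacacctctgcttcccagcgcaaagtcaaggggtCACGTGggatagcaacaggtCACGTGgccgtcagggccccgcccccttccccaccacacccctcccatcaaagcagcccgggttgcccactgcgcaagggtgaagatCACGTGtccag
Cdk6: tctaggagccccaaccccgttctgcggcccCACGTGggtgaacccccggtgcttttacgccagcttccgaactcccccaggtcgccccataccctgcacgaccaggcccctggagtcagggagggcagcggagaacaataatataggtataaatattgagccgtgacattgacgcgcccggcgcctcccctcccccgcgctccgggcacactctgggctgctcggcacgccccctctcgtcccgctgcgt
Cdkn1b: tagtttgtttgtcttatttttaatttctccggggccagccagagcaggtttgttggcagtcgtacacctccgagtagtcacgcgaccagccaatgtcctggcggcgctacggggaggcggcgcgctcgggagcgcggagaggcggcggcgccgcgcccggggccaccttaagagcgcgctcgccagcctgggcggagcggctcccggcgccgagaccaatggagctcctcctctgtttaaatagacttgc

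Cdk4 holds 4 E-box words, starting at -172, -118, -98 and -11 from the start site, and Cdk6 holds 1, at -220 from its later start. At least 1 such word stands in 6.02% of the 32851 promoter windows of this length, and at least 4 stand in 7 of them. No window was at hand for Ccnd2, the gene whose likeness to Myc prompted the search. Whether MYC acts on any of these genes was not tested. RefSeq windows were at hand for 6 of the 10 genes, 8 windows in all, and the letters CACGTG are not in those of Ccnd3, Ccne1, Cdkn1b and Cdkn2a. The E2F word TTTCCCGC, searched on both strands, stands in 1 of the 8 windows, upstream of a Cdkn2a start at -99, and in 0.895% of all windows. A word in a window is not a measured binding site.

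Among the inhibitors, Cdkn1b, which encodes p27, was lower in every one of the 4 comparisons. Its WT arrays gave 9.97 and 10.15 (+dox) and 9.66 and 9.57 (-dox), and the F266A arrays 9.51 and 9.53 (+dox) and 9.12 and 9.11 (-dox). The groups did not overlap, with WT +dox highest and F266A -dox lowest. Cdkn1b fell by 0.45 ± 0.08 in the WT line (1.36-fold, adjusted p = 0.00241) and by 0.41 ± 0.08 in the F266A line (1.33-fold, adjusted p = 0.00737). In F266A it was lower than in WT by 0.54 ± 0.08 with doxycycline (1.46-fold, adjusted p = 0.000889) and by 0.50 ± 0.08 without it (1.42-fold, adjusted p = 0.00145). All 4 calls held with each array left out in turn. They rest on 1 probe set, 1434045_at, since 1419497_at stayed between 4.04 and 4.63. Ccnd2 and Cdkn1b both lie on chromosome 6. Its 571 genes had median differences of 0.02 (WT line), 0.06 (lines with doxycycline), 0.06 (F266A line) and 0.05 (lines without doxycycline). The medians over all genes were 0.0037, 0.0029, -5.48e-05 and -0.0089. In all but the WT line, chromosome 6 had the highest median of the chromosomes that hold the 10 genes. The part of this shift in the differences of Ccnd2 and Cdkn1b was not tested.

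Cdkn2a, a locus whose transcripts encode INK4A and the p53 regulator ARF, was near the minimum throughout. Its probe set reads the locus as a whole. With doxycycline it gave 5.66 and 5.39 in the WT arrays and 6.04 and 6.16 in the F266A arrays, and without it 5.49 and 5.67 (WT) and 6.06 and 5.81 (F266A). All 4 F266A arrays were above all 4 WT arrays, and both WT group means were under the minimum. Cdkn2a was 0.58 ± 0.12 higher in F266A +dox than in WT +dox (1.49-fold, adjusted p = 0.00566), or 0.46 above the minimum itself. Without doxycycline the line difference was 0.36 ± 0.12 (adjusted p = 0.048), a call that held without 3 of the 8 arrays. It was lost in most other settings, with adjusted p-values from 0.0503 (brightest probe set) over 0.0569 (replicate block) to 0.0791 (no expression minimum). Within the lines the differences were 0.05 ± 0.12 (WT) and -0.17 ± 0.12 (F266A), and neither passed the test.

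Rb1, whose product is the substrate of these kinases, read 8.42 and 8.60 with doxycycline and 8.17 and 8.35 without it in the WT line, against 8.77 and 8.61 with and 8.33 and 8.26 without in the F266A line. In both lines the -dox arrays were below the +dox arrays. The fall passed the test in the F266A line (0.39 ± 0.10 lower, 1.31-fold, adjusted p = 0.0205; without 6 of the 8 arrays it was still called) and not in the WT line (-0.25 ± 0.10, adjusted p = 0.073). The difference between these effects was -0.14 ± 0.14 with an adjusted p of 0.597. In the WT line the fall was called with quantile normalization (adjusted p = 0.0345) and with the trended robust prior (adjusted p = 0.0303).

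**Figure D3:**
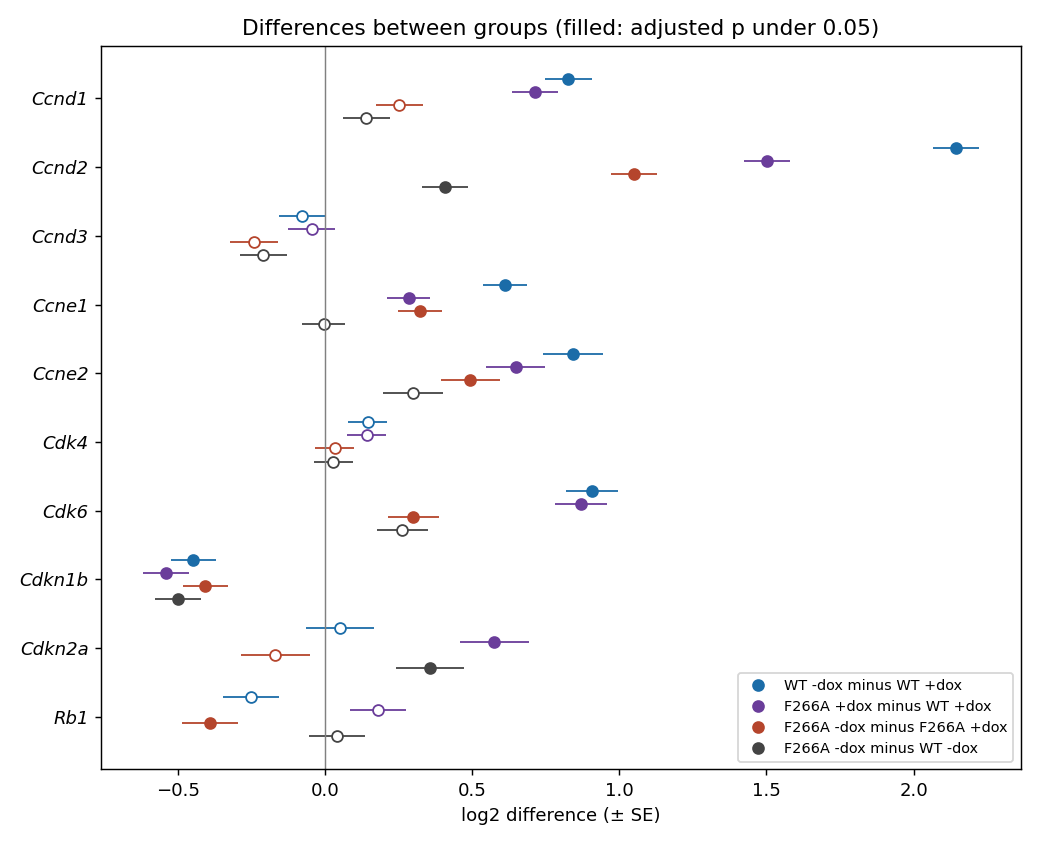
Log2 difference (horizontal axis, bars ± SE) of each of the 10 genes (vertical axis) in the 4 comparisons, marked by colour. Filled points passed an adjusted p under 0.05 (limma); only Cdkn1b and Ccnd2 are filled in all 4, and they lie on opposite sides of 0.

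The 4 groups can be ordered by adding the comparison of F266A +dox with WT -dox, which was chosen after the data had been seen. From lowest to highest, Ccnd2 ran through WT +dox, then F266A +dox, then WT -dox, then F266A -dox, and each neighbour differed: F266A +dox was 0.64 ± 0.08 below WT -dox (adjusted p = 0.000889). Ccne1 was also lower in F266A +dox than in WT -dox, by 0.33 ± 0.07 (adjusted p = 0.0186, or 0.0907 with the brightest probe set). Cdkn2a (0.53 ± 0.12) and Rb1 (0.43 ± 0.10) were higher in F266A +dox, both with an adjusted p of 0.0172. Over all genes, 9.09% were higher and 4.41% were lower in this comparison. Of these calls, those of Ccne1, Cdkn2a and Rb1 held without 4, 5 and 6 of the 8 arrays, and that of Ccnd2 held with each of the 8 left out.

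For the other 6 genes, no difference between F266A +dox and WT -dox passed the test: Ccnd1 (-0.11 ± 0.08), Ccnd3 (0.03 ± 0.08), Ccne2 (-0.19 ± 0.10), Cdk4 (-0.0039 ± 0.07), Cdk6 (-0.04 ± 0.09) and Cdkn1b (-0.09 ± 0.08) all had adjusted p-values of 0.244 or more. Ccnd1, Ccne2 and Cdk6 therefore stood lowest in WT +dox, with no called step among the other 3 groups except from F266A +dox to F266A -dox for Ccne2 and Cdk6. From WT -dox to F266A -dox, Cdk6 (0.26 ± 0.09, adjusted p = 0.0515) and Ccne2 (0.30 ± 0.10, adjusted p = 0.0545) just missed the threshold. Both were called there with a minimum of 100 (adjusted p = 0.0362 and 0.0383) and with the trended robust prior (0.0313 and 0.0207). Cdkn1b ran from highest in WT +dox through a middle pair to lowest in F266A -dox.

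The question whether removing doxycycline changed the lines to a different degree was put to an interaction term. The term, the effect in the F266A line minus that in the WT line, was called for 3 of the 10 genes. All 3 had a smaller difference in the F266A line. Over all genes, 5.15% were called in either direction. Ccnd2 rose by 2.14 in the WT line and by 1.05 in the F266A line, a difference of -1.10 ± 0.11 (adjusted p = 0.00144). Ccnd1 gave -0.57 ± 0.11 (adjusted p = 0.0229) and Cdk6 -0.61 ± 0.12 (adjusted p = 0.0265). With each array left out in turn, the Ccnd2 term was called in all 8 fits, the Ccnd1 term in 3 and the Cdk6 term in 1, the fit without WT +dox replicate 2. All 5 passing Ccnd2 probe sets were called, 3 of them under the minimum in both WT +dox arrays, against 1 of 3 for Ccnd1 and 1 of 2 for Cdk6. In Ccnd2 the WT +dox level lay under the minimum, so a rise measured from there is read less surely than one in the F266A line.

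For Cdkn1b the interaction was 0.04 ± 0.11 (adjusted p = 0.871), with a fall of 0.45 in the WT line and of 0.41 in the F266A line. Ccne1 (-0.29 ± 0.10, adjusted p = 0.15) and Ccne2 (-0.35 ± 0.14, adjusted p = 0.202) had smaller rises in the F266A line, and the term did not pass the test.

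**Figure D4:**
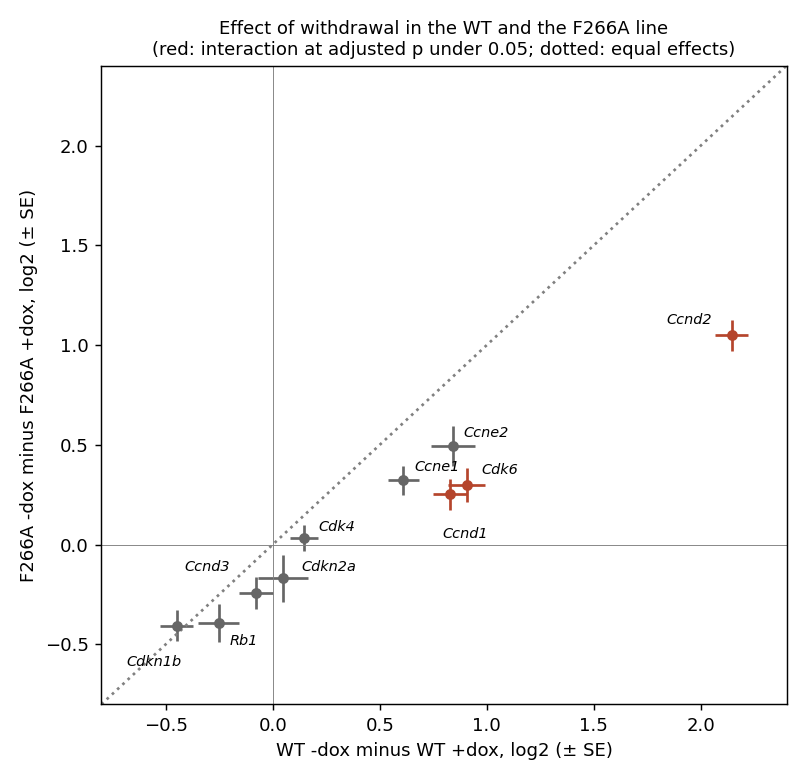
Log2 difference without minus with doxycycline in the WT line (horizontal axis) and in the F266A line (vertical axis), bars ± SE, for the 10 genes; the dotted line marks equal effects and red marks a called interaction. Ccnd2, Ccnd1 and Cdk6 lie below the line, at 2.14 against 1.05, 0.83 against 0.25 and 0.91 against 0.30, and Cdkn1b lies near it.

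The rest of the G1 and S-phase pathway was followed in 7 lists of 47 genes, of which 45 were tested. In the WT line 10 rose and 6 fell without doxycycline, beside 16.1% and 15.4% of all genes. In F266A +dox 10 were higher and 7 were lower than in WT +dox (15.9% and 12.5% of all genes). Within the F266A line 7 rose and 6 fell (8.94% and 10.6%), and between the lines without doxycycline 9 were higher and 5 were lower (14.0% and 13.4%). Medians of the 45 were 0.04, -0.0053, 0.05 and 0.0040 in these comparisons, beside the medians over all genes given above. The interaction was called for 2 of them, beside 5.15% of all genes.

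CDK2, its activating phosphatase Cdc25a and the CDK-activating kinase (5 genes) had no call in any comparison (limma), with 0 to 2 genes at an unadjusted p under 0.05 in each. The WT arrays of Cdk2 gave 9.95 and 9.92 (+dox) and 9.82 and 10.07 (-dox), and the F266A arrays 9.73 and 9.74 (+dox) and 9.90 and 9.86 (-dox). The cyclin E genes rose with no called change in the mRNA of the kinase they activate.

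The other CDK inhibitors went separate ways. Cdkn1c is the p57 gene, a relative of Cdkn1b. With doxycycline it read 6.58 and 6.92 in the WT arrays and 8.23 and 7.95 in the F266A arrays, and without it 7.93 and 8.05 (WT) and 8.77 and 8.67 (F266A). It was lowest in WT +dox and highest in F266A -dox, the opposite of Cdkn1b, and was called higher in all 4 comparisons (1.24 ± 0.12, 1.34 ± 0.12, 0.63 ± 0.12 and 0.73 ± 0.12, for the WT line, the lines with doxycycline, the F266A line and the lines without doxycycline). Cdkn1a, the p53 target p21, stood apart in WT -dox alone, at 9.08 and 9.09 against 9.68 to 9.89 in the other 6 arrays. It fell by 0.78 ± 0.08 in the WT line, was 0.70 ± 0.08 higher in F266A -dox than in WT -dox, and had a called interaction of 0.75 ± 0.11 (adjusted p = 0.008).

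Cdkn2b, the neighbour of Cdkn2a that encodes INK4B, was 6.31 to 6.66 in the 4 WT arrays and 7.29 to 7.43 in the 4 F266A arrays. It was higher in F266A by 0.82 ± 0.09 with doxycycline and by 0.97 ± 0.09 without it (adjusted p = 0.000186 and 7.8e-05). Cdkn2c was lower by 0.37 ± 0.10 in WT -dox and by 0.30 ± 0.10 in F266A +dox, each against WT +dox.

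Of the other pocket proteins, the relatives of RB1, Rbl2 passed the minimum through WT +dox, at 5.96 and 5.97. Its means in the other groups were under it, with 5.65 and 5.61 in F266A +dox, 5.35 and 5.39 in WT -dox, and 5.08 and 4.96 in F266A -dox, so its differences are not read further. Rbl1 fell by 0.35 ± 0.08 in the F266A line and was lower by 0.38 ± 0.08 in F266A -dox than in WT -dox.

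Among the 10 E2F and DP factors, 4 rose and 1 fell in the WT line (16.1% and 15.4% of all genes), and E2f8, a repressor of the family, moved most there (0.70 ± 0.07, adjusted p = 0.000121). Tfdp1, the DP partner of E2F proteins, was called higher in all 4 comparisons, by 0.29 to 0.36. E2f1 was lower in F266A than in WT with doxycycline (-0.29 ± 0.08) and without it (-0.40 ± 0.08). Of 13 S-phase targets of E2F tested, 2 rose and 1 fell in the WT line, shares no higher than those over all genes, and 10 were not called. Mcm2, a subunit of the replicative helicase, was called higher in all 4 comparisons (0.26 to 0.39) and Mybl2, the MYB factor of proliferating cells, lower in all 4 (by 0.51 to 0.71).

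In the list on turnover of G1 regulators, Cul1, the scaffold of the ubiquitin ligases that destroy cyclin E and p27, stood lowest in WT +dox (8.94 and 8.97) and highest in F266A -dox (10.24 and 10.33). It was called higher in all 4 comparisons, by 0.54 ± 0.07, 0.60 ± 0.07, 0.73 ± 0.07 and 0.80 ± 0.07. Fbxo4, an F-box protein tied to cyclin D1, fell by 0.51 ± 0.09 in the WT line and was 0.50 ± 0.09 higher in F266A -dox than in WT -dox.

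**Figure D5:**
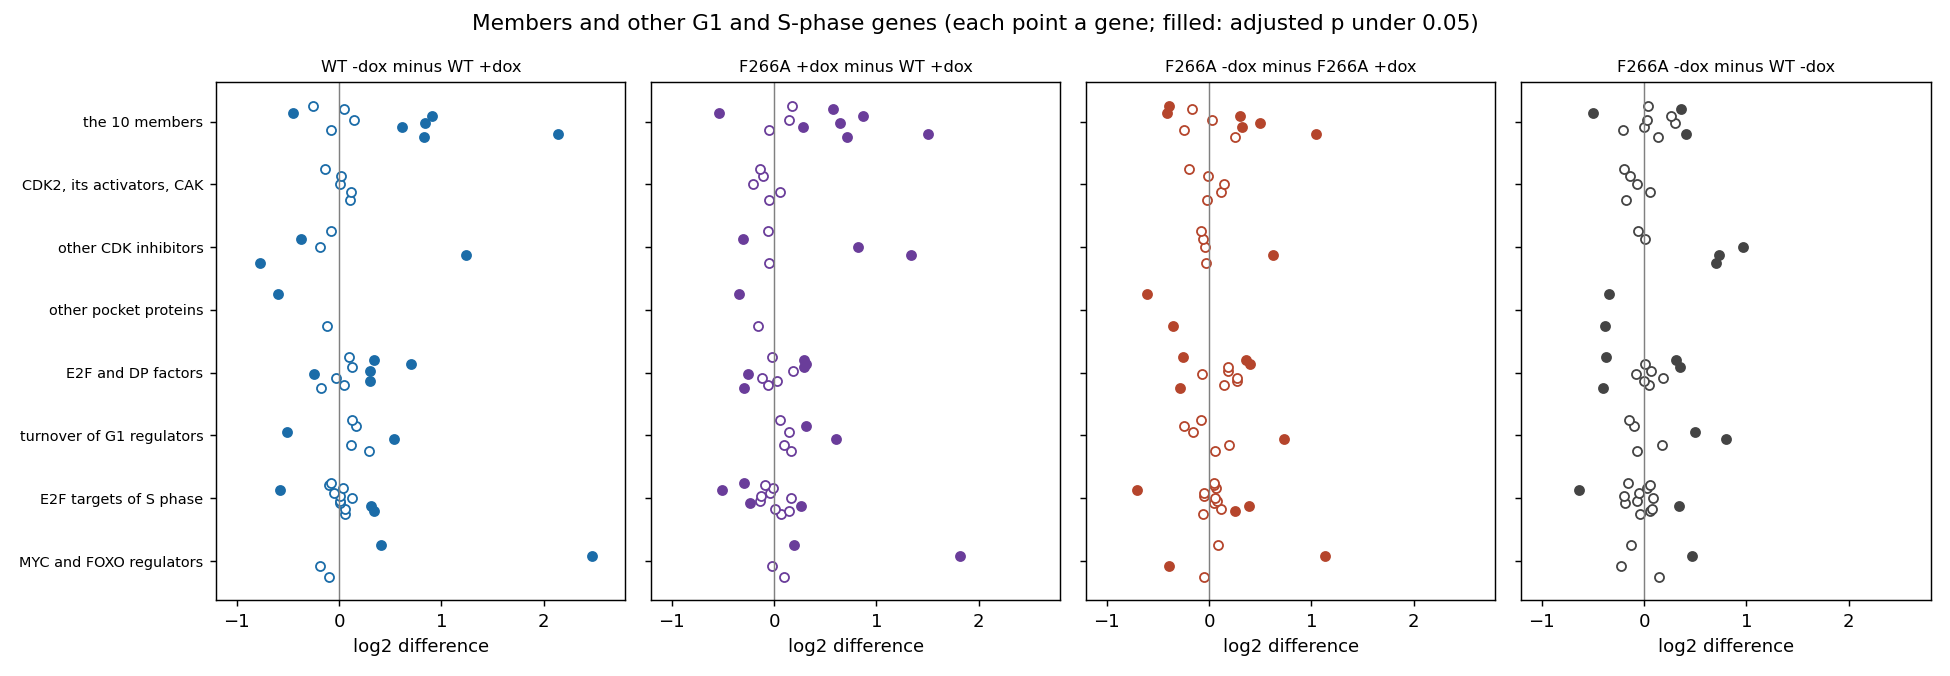
Log2 difference (horizontal axis) of the 10 genes and of the 45 tested genes of 7 pathway lists (vertical axis), 1 panel for each comparison; each point is a gene and filled points passed an adjusted p under 0.05. Myc, at 2.47 in the WT line, and Ccnd2, at 2.14, lie farthest right in the first panel, and the CDK2 list has no filled point in any panel.

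Myc, the regulator of growth genes, was the gene whose levels ran most like those of Ccnd2 (Pearson r = 0.997 over the 8 arrays), followed by Ap4s1 (r = 0.997), a subunit of an adaptor complex of vesicles, and Dnmt3b (r = 0.997), a DNA methyltransferase that is also 1 of the 5 primed epiblast markers. The 8 arrays are 4 pairs of duplicates, so the likeness rests on 4 group levels. Myc read 5.84 and 6.09 with doxycycline and 8.47 and 8.41 without it in the WT line, against 7.88 and 7.67 with and 8.97 and 8.84 without in the F266A line. Its differences were 2.47 ± 0.10 in the WT line, 1.81 ± 0.10 between the lines with doxycycline, 1.13 ± 0.10 in the F266A line and 0.47 ± 0.10 between the lines without doxycycline, and its interaction was -1.35 ± 0.14 (adjusted p = 0.00188). Mycn rose by 0.42 ± 0.06 in the WT line. Foxo3, a factor known to activate Cdkn1b, fell by 0.40 ± 0.09 in the F266A line, and its difference did not pass the test in the other 3 comparisons.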

How the data were processed

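The authors hybridized total RNA of 8 samples to Affymetrix mouse expression arrays and deposited log2 expression values of 45101 probe sets, normalized by RMA (justRMA, R 2.11.1 per the submitters' processing notes). RMA forces equal value distributions on the arrays, so a shift of all mRNAs cannot be seen. Arrays give no read depth, and their number limits the precision. Groups and replicate numbers come from the sample labels.

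Symbols came from the platform annotation: 34945 probe sets have 1 symbol, 932 several and 9160 none, and 64 are controls. As in the authors' methods, probe sets above 50 in at least 1 array (20046) were averaged per gene. The 4 group means were fitted to all 8 arrays with limma 3.58.1 in R 4.3.3 (4 residual and 5.32 prior degrees of freedom), two-sided, with Benjamini-Hochberg adjustment over the 11940 genes of a comparison and calls at an adjusted p under 0.05. SAM, the authors' test, was not at hand. The fit was tested on simulated data. The authors' methods call the arrays biological duplicates, and 1 line stands for each cDNA, so p-values measure the spread between these duplicates. Whether duplicates were grown as separate cultures is not stated. The 10 genes and the lists were chosen with earlier results of these data known.

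Besides the 10 genes, the text names at most 4 called genes with the largest differences per list and comparison, Wdr5, and the 3 genes most correlated with the member of widest range (Ccnd2). Cdk2 was named for its role. Not all genes the rule allows are printed. Chromosomes and promoter windows come from RefSeq tables of GRCm38.p6.

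Alternatives were no expression minimum or one of 100, the brightest probe set, single probe sets, quantile normalization, median centring, a fit restricted to the compared groups, a block for the replicate number, a trended robust variance prior, array weights, a 2-fold threshold and each array left out. A crossed block and the comparison of F266A +dox with WT -dox were chosen after seeing the data.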

Additional observations from a re-analysis of the deposited data

Results flagged for a closer look

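For 3 of the 10 genes the effect of growth without doxycycline differed between the lines by a direct test of that difference, the interaction term in limma (F266A effect minus WT effect). The term was -1.10 on the log2 scale for Ccnd2 (adjusted p = 0.00144), -0.57 for Ccnd1 (adjusted p = 0.0229) and -0.61 for Cdk6 (adjusted p = 0.0265). All 3 genes had higher means without doxycycline in both lines, with the smaller difference in the F266A line, whose +dox arrays were already above WT +dox. Within the F266A line the Ccnd1 difference of 0.25 was not called (limma, adjusted p = 0.0528). The Cdk6 difference of 0.30 was called there (adjusted p = 0.0403), but its probe set 1455287_at alone was not (0.14, adjusted p = 0.41). The Ccnd2 term was called with each of the 8 arrays left out, the Ccnd1 term in 3 of those 8 fits and the Cdk6 term in 1.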

How the results depend on the processing

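Of the member calls, none changed direction under any alternative run. Across the comparisons, including the added one of F266A +dox with WT -dox, called differences kept their call in 272 of 313 values under other settings (the 2-fold threshold included), in 58 of 67 by single probe sets and in 190 of 232 with an array left out. With that threshold, 1 member was called in each of 4 comparisons (WT -dox over WT +dox, F266A +dox over WT +dox, F266A -dox over F266A +dox, interaction) and 0 in the other 2. Differences that were not called gained a call in 25 of 331 values under other settings and in 6 of 59 by single probe sets. With a minimum of 100, the comparison of the lines without doxycycline had 5 members called in place of 3. With each array left out in turn, members called were 6 for the WT line (6 with all arrays), 6 to 7 for the lines with doxycycline (7), 2 to 6 for the F266A line (6), 2 to 5 for the lines without doxycycline (3), 1 to 3 for the interaction (3) and 1 to 4 for F266A +dox against WT -dox (4). In the F266A line the count was 2 or 3 without F266A +dox replicate 1 or 2, and 4 or more otherwise. Between the lines without doxycycline it was 5 without either WT +dox array and 2 without each of 5 arrays (both WT -dox, both F266A +dox and F266A -dox replicate 1). For the interaction it was 1 without each of 5 arrays (WT +dox replicate 1, both WT -dox, F266A +dox replicate 1 and F266A -dox replicate 2), 2 without F266A +dox replicate 2 or F266A -dox replicate 1, and 3 without WT +dox replicate 2. For the added comparison it was 1 without WT -dox replicate 1 or F266A +dox replicate 1, and 2 without F266A +dox replicate 2. The cause was not tested.

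Same-numbered samples deviated together within each line (0.13 and 0.16) and against each other between lines (-0.11 to -0.18). The main fit paired no samples, and the labels do not say whether same-numbered samples were handled together. Blocks for the replicate number were fitted as alternatives. With the replicate block, members called were 6 in the WT line, 7 between the lines with doxycycline, 5 in the F266A line, 2 between the lines without doxycycline, 3 for the interaction and 4 for the added comparison. Genes called in that order were 3439, 3105, 2079, 2978, 451 and 1401. A crossed replicate block, added after seeing the data, called 7, 7, 8, 4, 3 and 4 members and 4201, 3806, 2827, 3696, 895 and 1921 genes.

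Genes called were 3763 (WT line), 3384 (lines with doxycycline), 2333 (F266A line), 3277 (lines without doxycycline), 615 (interaction) and 1611 (added comparison), and 162, 234, 48, 216, 61 and 82 with the 2-fold threshold. Without an expression minimum they were 1537 for the F266A line, 290 for the interaction and 1059 for the added comparison, and the trended robust prior gave 1110 for the interaction. With an array left out they were 2359 to 3910, 1932 to 3514, 1014 to 2267, 1944 to 3219, 174 to 688 and 634 to 1738.

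Signs turned only for small differences that were not called. Without a minimum, Ccnd3 was 0.015 in the WT line and -0.046 in F266A +dox against WT -dox, where Cdkn1b was 0.054, and the interaction of Cdkn1b was -0.028. By single probe sets, Ccnd1 was -0.072 (1417419_at), Ccne1 0.039 (1416492_at) and Cdk4 -0.052 (1422440_at) between the lines without doxycycline, Cdk4 was -0.0068 in the F266A line (1422440_at), and Ccnd3 was 0.026 in the WT line and -0.048 in the added comparison (1444323_at). In the added comparison Cdk4 was 0.016 by 1422439_a_at, 0.017 by 1422441_x_at or the brightest probe set, and 0.026 after quantile normalization. With an array left out, these differences spanned 0: in the WT line Ccnd3 (-0.17 to 0.011) and Cdkn2a (-0.083 to 0.18), between the lines with doxycycline Ccnd3 (-0.13 to 0.043), in the F266A line Cdk4 (-0.010 to 0.074), between the lines without doxycycline Ccne1 (-0.063 to 0.052) and Rb1 (-0.052 to 0.13), in the interaction Cdkn1b (-0.051 to 0.13), and in the added comparison Ccnd3 (-0.018 to 0.081), Cdk4 (-0.046 to 0.038) and Cdk6 (-0.078 to 0.0036). Cdkn2a, and Ccnd2 in WT +dox, lie near or under the minimum, which limits how their differences can be read.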
